A study of Mus musculus with 10 samples.

Results

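Catenins and nectins are the proteins that hold adherens junctions together from both sides of the membrane. The mRNA levels of 10 of their genes were examined in hearts of E10.5 embryos: the α-catenins Ctnna1, Ctnna2 and Ctnna3, β-catenin (Ctnnb1), the p120-type catenins Ctnnd1 and Ctnnd2, the α-catenin relative Ctnnal1, and Nectin1, Nectin2 and Nectin3. They were taken by their symbols in the platform annotation, where each is the only gene of exactly 1 transcript cluster (a set of probes along the exons of a gene), so that 10 of 19938 genes with a cluster of their own are described. The groups were 5 WT samples and 5 CAR KO samples, each made from 3 pooled hearts and hybridised to an Affymetrix Mouse Gene ST array. CAR KO embryos lack the coxsackie–adenovirus receptor in all cells, carry the Cxadr tm1 allele and came from matings of CAR +/- mice; nothing was applied to either genotype, and the sex and litters of the embryos are not given in the sources used here. Pooling averages the hearts of a sample, and the p-values measure the spread between these pools. All values are log2 signals, so that a difference of 1 is a doubling, and the array reports mRNA of the whole heart, in which fewer cells of a type and less RNA per cell cannot be told apart.

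At an adherens junction, classical cadherins of neighbouring cells bind each other outside the cell, and their tails bind catenins inside. β-catenin ties the cadherin tail to α-catenin, which reaches the actin filaments, while p120-catenin binds nearer the membrane and keeps cadherins at the surface. Nectins are immunoglobulin-type adhesion molecules, as CAR is, and are tied to actin through afadin. In cardiomyocytes these junctions develop into the intercalated disc, where the beating cells are held together, and β-catenin that is not bound at junctions also acts in the nucleus with TCF/LEF factors.

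The arrays of the 10 samples were alike in scale, with medians between 7.65 and 7.73, and the deleted gene followed the labels. Cxadr had a mean of 8.38 ± 0.18 in the WT samples and of 6.46 ± 0.17 in the CAR KO samples (SD, n = 5 each; adjusted p = 1.40e-05 from limma). Background was set at 6.50, the 95th percentile of 1205 clusters of odorant and vomeronasal receptors, and a gene whose mean over the samples passed it is called above background here. The 9 cardiomyocyte markers examined were above it in both genotypes, as hearts should show. WT sample 5 and CAR KO sample 5 stood apart in composition: the mean of these markers was 12.95 and 12.89 there and between 13.14 and 13.23 in the other samples, and both were also rich in liver and yolk sac transcripts (list means of 9.31 and 10.24), as was WT sample 2 (9.25). The number of arrays limits the precision.

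All 10 genes were above background in E10.5 hearts, and none of them was called between CAR KO and WT (adjusted p = 1.0 for each from limma, with Benjamini-Hochberg adjustment over 28944 clusters, of which 0.00345% were called). Nectin1 alone had an unadjusted p under 0.05, against 2.40% of all clusters, and the methods' t-test with the same adjustment also called none. The genotypes overlapped for each of the 10 genes, whereas they did not for 0.359% of all clusters. Differences ran from -0.12 for Ctnnd1 to 0.13 for Nectin1, with 7 genes lower and 3 higher in CAR KO hearts and a median of -0.03, beside a median of -0.00012 over 14688 genes above background. A p that misses the threshold is no evidence of equal levels, so the 95% confidence intervals were set against fold limits. The intervals of all 10 genes fitted inside a change of 1.5-fold up or down, and those of 7 inside 1.2-fold, against 97.3% and 60.6% of all clusters. Without CAR KO sample 1 the latter count was 4.

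**Figure D1:**
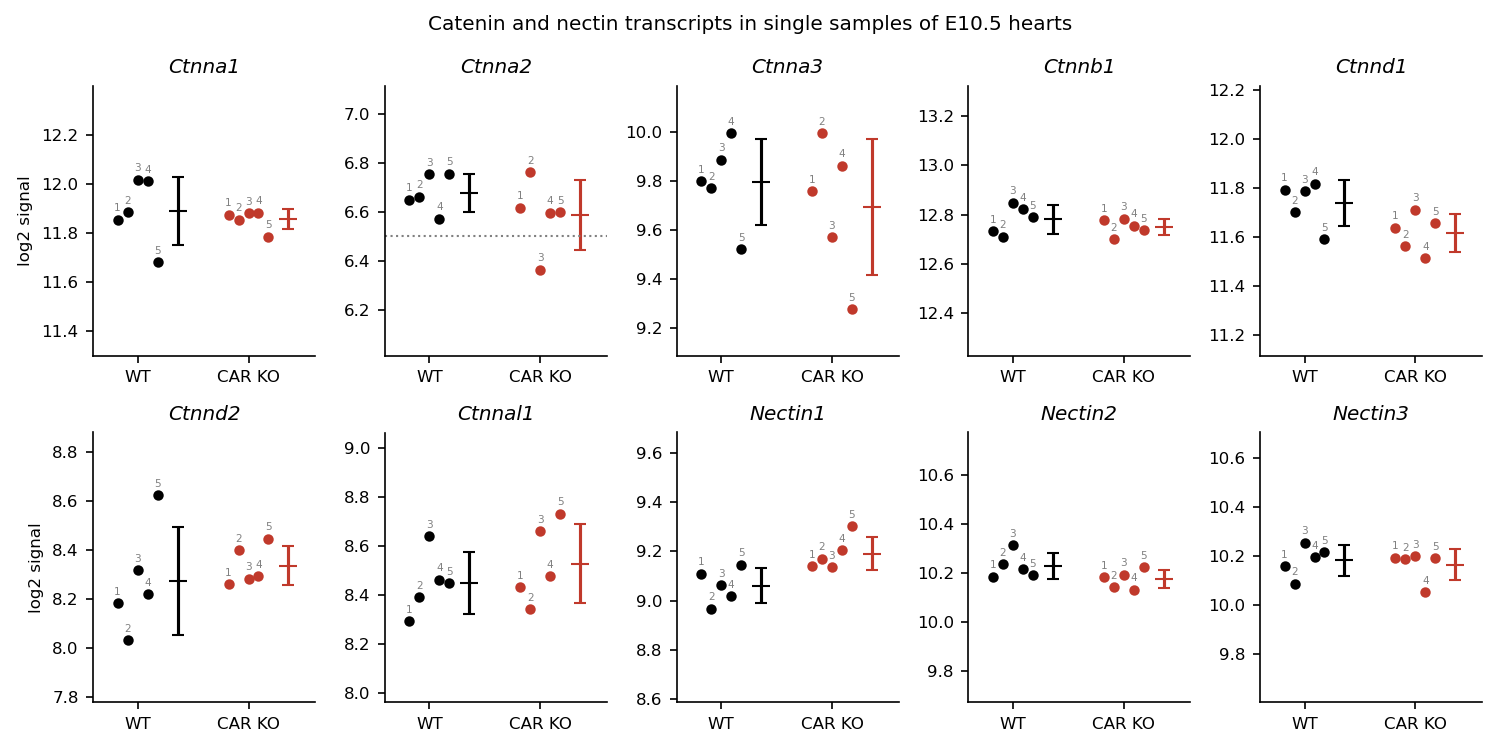
Log2 signal of the 10 catenin and nectin transcripts, with a point for each E10.5 heart sample (WT black, CAR KO red); small numbers are sample numbers, bars show the mean and SD of 5 samples, every panel spans the same height, and background (6.50) is drawn as a dotted line. The genotypes overlap in every panel, most narrowly for Nectin1, and Ctnna3 spreads most.

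β-catenin was among the steadiest transcripts of the heart. Ctnnb1 lies on chromosome 9 from 120933400 to 120960507 (GRCm38.p6). Its log2 signal was 12.73, 12.71, 12.85, 12.82 and 12.79 in WT samples 1 to 5 and 12.78, 12.70, 12.78, 12.75 and 12.74 in CAR KO samples 1 to 5. The 10 samples thus stayed within 0.15 of each other, and the genotypes lay over one another. The difference of -0.03 had a standard error of 0.05 and an interval from -9.28% to 5.66% on the linear scale, and it was -0.01 without WT sample 3 and -0.05 without WT sample 2. Its SD within a genotype was 0.05, lower than that of all but 2.14% of the genes above background, which had a median SD of 0.13; the percentiles given here do not take the signal level of a gene into account.

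The α-catenins differed in how much they varied between samples rather than between genotypes. Ctnna1 encodes αE-catenin, the form found in most tissues. It was at 11.85, 11.88, 12.02, 12.01 and 11.68 in the WT samples and at 11.87, 11.85, 11.88, 11.88 and 11.78 in the CAR KO samples. All CAR KO values fell between the lowest and the highest WT value, and sample 5 was the lowest of either genotype. The difference was -0.03 with an interval of -0.18 to 0.12, and it ranged from -0.09 without WT sample 5 to -0.0021 without WT sample 3.

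Ctnna3 encodes αT-catenin, a form known from heart muscle and testis, and spans a long stretch of chromosome 10 (63430098 to 65003667, GRCm38.p6). Its signal in the WT samples was 9.80, 9.77, 9.89, 9.997 and 9.52, and in the CAR KO samples 9.76, 9.995, 9.57, 9.86 and 9.28. Sample 5 was again the lowest of each genotype, and the highest WT and CAR KO samples were level. With a range of 0.72 over the 10 samples and a SD within genotypes of 0.23, Ctnna3 varied more than 90.2% of the genes above background did by SD. The difference of -0.10 had a standard error of 0.13, so that the interval ran from -0.38 to 0.18, and without CAR KO sample 5 the difference was 0.0022. The 2 samples with the lowest Ctnna3 were also the 2 with the lowest cardiomyocyte marker means, whose part in the result was not tested. CAR KO sample 3, with the next lowest Ctnna3, had a cardiomyocyte marker mean of 13.20, level with the other samples.

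Ctnna2 encodes αN-catenin, known from the nervous system. It lay close to the background level, at 6.57 to 6.76 in WT and 6.37 to 6.76 in CAR KO hearts, and CAR KO sample 3 lay below that level. The difference was -0.09 (standard error 0.07), and without CAR KO sample 3 it was -0.04. Against the 99th percentile of the receptor clusters (7.32) the gene was not above background. Folds of genes this dim are compressed on arrays.

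Ctnnal1, or α-catulin, is related to α-catenins in sequence. In WT hearts it ran from 8.29 to 8.64 and in CAR KO hearts from 8.34 to 8.73, with CAR KO samples 3 and 5 above all WT samples. The difference of 0.08 had a standard error of 0.09 and an interval of -0.11 to 0.27. It was 0.03 without CAR KO sample 5, 0.13 without WT sample 3, 0.0069 with array weights and 0.012 without the 3 samples rich in liver transcripts.

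Of the p120-type catenins, Ctnnd1 had the lowest value in CAR KO relative to WT among the 10 genes. It encodes p120-catenin and lies on chromosome 2 from 84587096 to 84658977 (GRCm38.p6). Signals were 11.79, 11.70, 11.79, 11.82 and 11.59 in the WT samples and 11.64, 11.56, 11.71, 11.51 and 11.65 in the CAR KO samples. The 5 CAR KO samples lay below the WT median of 11.79, and 2 of them below all WT samples, while WT sample 5 lay among the CAR KO samples. The means were 11.74 ± 0.09 (SD, n = 5) and 11.62 ± 0.08 (SD, n = 5), and the difference of -0.12 corresponds to a decrease in the estimate of 8.12% with an interval from -16.4% to 1.02% (adjusted p = 1.0 from limma; exact permutation test, two-sided, p = 0.0556). The permutation p was not adjusted. Without WT sample 5 the difference was -0.16. It was -0.19 without WT samples 2 and 5 and CAR KO sample 5, the 3 samples richest in liver transcripts, an alternative chosen after the data were seen (adjusted p = 0.879 from limma). In that alternative the unadjusted p was under 0.05 for Ctnnd1 and not for Nectin1. Over 20 alternatives it was under 0.05 in 5 for Ctnnd1, namely array weights, the variance trend and the 3 that left out WT sample 5, and in 12 for Nectin1.

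Ctnnd2 encodes δ-catenin, a neural relative of p120-catenin, and was measured above background here. The values were 8.18, 8.03, 8.32, 8.22 and 8.63 in WT and 8.26, 8.40, 8.28, 8.30 and 8.45 in CAR KO samples. WT samples held both the lowest and the highest value, and sample 5 was the highest of each genotype. The SD was 0.22 in WT and 0.08 in CAR KO hearts, and the difference was 0.06 (standard error 0.10). Without WT sample 5 it was 0.15 and without WT sample 2 it was 0.00078. Markers of neurons and neural crest, 7 of 8 of which were above background, also had their highest mean in WT sample 5 (7.69, against 7.17 to 7.45 in the other samples), but their lowest in CAR KO sample 5, where Ctnnd2 was the next highest; their part in the result was not tested.

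**Figure D2:**
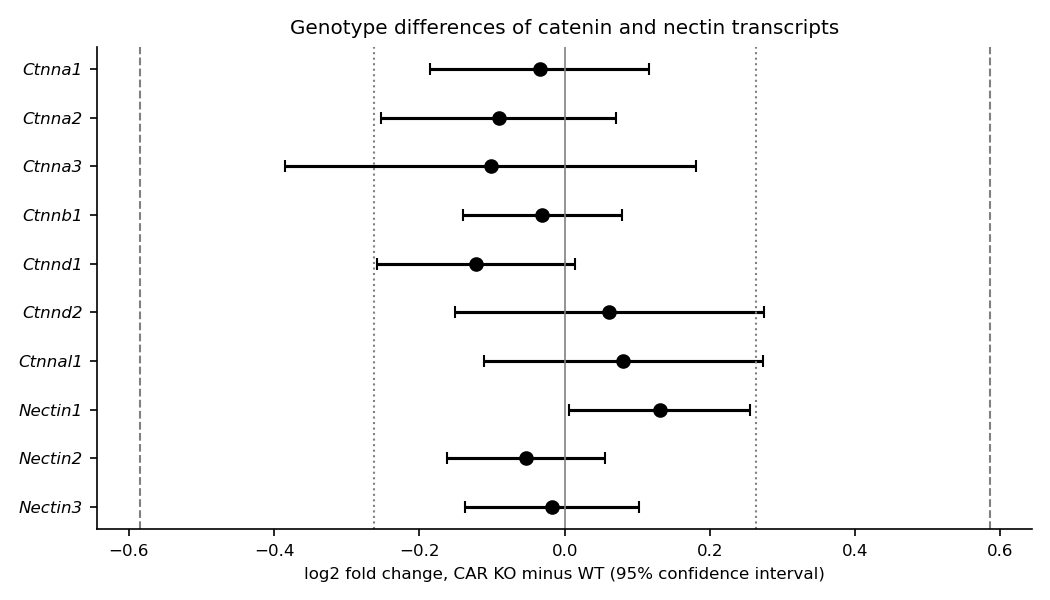
Differences in log2 signal (CAR KO less WT) of the 10 transcripts with 95% confidence intervals from limma; dotted lines mark a 1.2-fold and dashed lines a 1.5-fold change. All intervals lie inside the dashed lines, those of Ctnna3, Ctnnd2 and Ctnnal1 pass a dotted line, and that of Nectin1 begins just above 0.

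The nectins were narrow in spread, and Nectin1 stood highest in CAR KO relative to WT among the 10 genes. Nectin1, an adhesion molecule that binds other nectins across the cell contact, lies on chromosome 9 from 43737075 to 43807461 (GRCm38.p6). Its signal was 9.11, 8.97, 9.06, 9.02 and 9.15 in WT samples 1 to 5, and 9.14, 9.17, 9.14, 9.21 and 9.30 in CAR KO samples 1 to 5. The 5 CAR KO samples lay above the WT median of 9.06 and 3 of them above all WT samples, and only WT sample 5 reached into the range of the CAR KO samples. The means were 9.06 ± 0.07 (SD, n = 5) and 9.19 ± 0.07 (SD, n = 5). The difference of 0.13 (standard error 0.06) corresponds to an estimate 9.50% higher in CAR KO hearts, with an interval from 0.43% to 19.4% (adjusted p = 1.0 from limma; exact permutation test, two-sided, p = 0.0238). The permutation p was not adjusted and was the smallest of the 10 genes. This test cannot give a p under 0.00794 with 5 samples per genotype. Nectin1 was 1 of 283 clusters, or 0.978% of 28944, that were higher in CAR KO hearts at an unadjusted p under 0.05 from limma. Leaving out any of WT samples 2, 3 and 4 or of CAR KO samples 2, 4 and 5 raised the unadjusted p above 0.05, as did centring each array on its median. The difference was 0.10 when the 3 samples rich in liver transcripts were set aside, also with an unadjusted p above 0.05.

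Nectin2 had the smallest SD within genotypes of the 10 genes, at 0.05. Its WT samples lay between 10.18 and 10.31 and its CAR KO samples between 10.13 and 10.22, with 3 CAR KO samples below all WT samples. The difference of -0.05 had an interval from -10.6% to 3.93%, and it was -0.03 without WT sample 3.

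Nectin3 lies on the chromosome of Cxadr, chromosome 16, from 46387665 to 46498535 (GRCm38.p6), 31.8 Mb before the deleted gene. It was at 10.16, 10.09, 10.25, 10.20 and 10.21 in the WT samples and at 10.19, 10.19, 10.20, 10.05 and 10.19 in the CAR KO samples. Apart from CAR KO sample 4, the CAR KO samples were within 0.01 of each other. The difference was -0.02 with an interval of -0.14 to 0.10, and without CAR KO sample 4 it was 0.01.

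**Figure D3:**
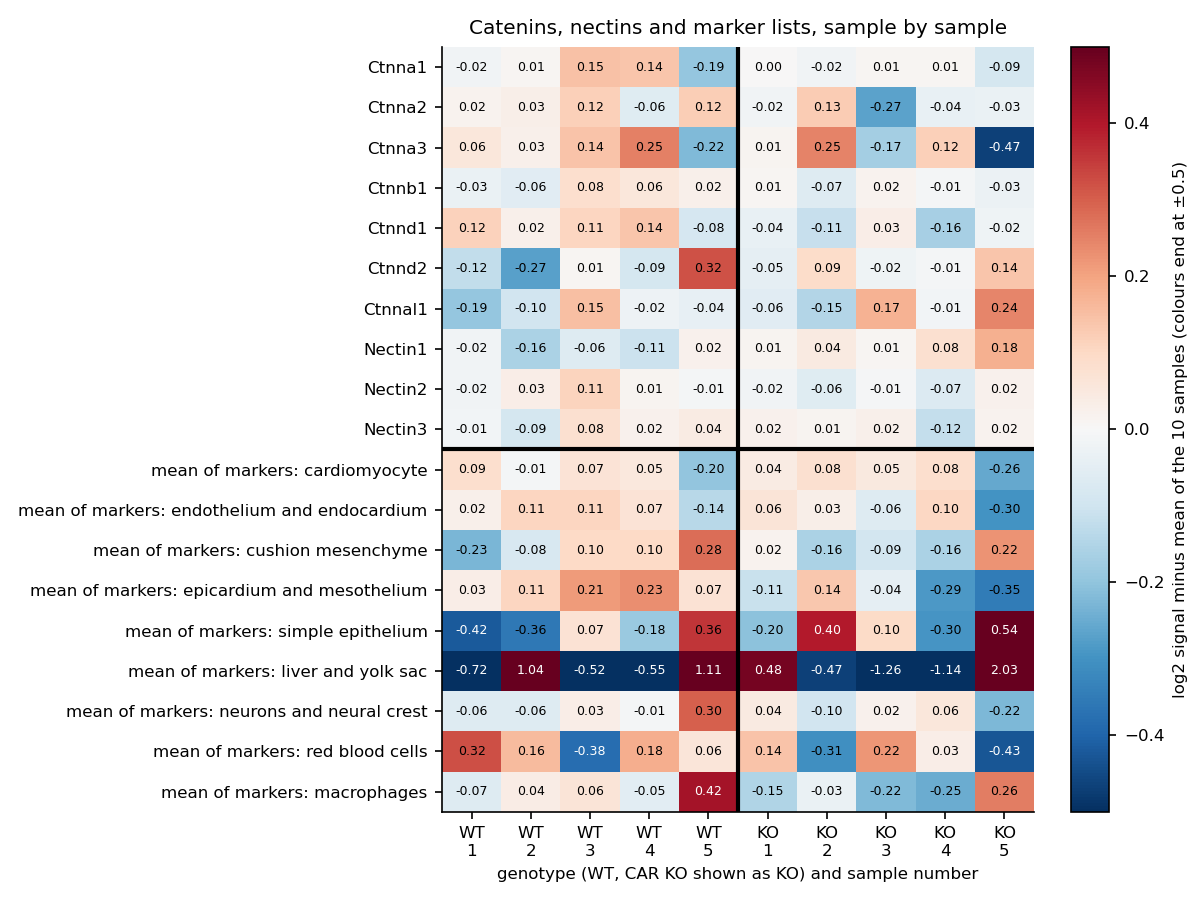
Log2 signal of each catenin and nectin (upper block) and mean log2 signal of each list of cell type markers (lower block) in the 10 samples, minus the mean over the 10 samples; printed numbers are the plotted values and colours end at 0.5 in either direction. In both samples numbered 5, Ctnna3 and Ctnna1 are low and Ctnnd2 is high. The cardiomyocyte and endothelial marker means are low in these samples, while the cushion mesenchyme, simple epithelium, liver and macrophage means are high. The simple epithelium mean is also high in CAR KO sample 2, and the liver mean in WT sample 2.

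The differences between samples were larger than those between genotypes for most of these genes. The difference between genotypes exceeded the SD within genotypes for Nectin1 (1.87 times), Ctnnd1 (-1.43) and Nectin2 (-1.17), and was smaller than it for the other 7. The SD lay below the median of the genes above background for 7 genes and above it for Ctnna3, Ctnnd2 and Ctnnal1.

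Other cell types could contribute to these levels, and the marker lists moved as follows. Endothelial and endocardial markers, 8 of 8 above background, had list means of 10.42 to 10.67 in WT and 10.26 to 10.67 in CAR KO hearts. Epicardial and mesothelial markers, 7 of 7 above background, were at 10.40 to 10.60 in WT hearts, and 4 of the 5 CAR KO samples lay below that range, at 10.02 to 10.32. Cushion mesenchyme markers ran from 10.78 to 11.29 and from 10.85 to 11.23 (7 of 7 above background). Simple epithelium markers ran from 7.56 to 8.34 and from 7.68 to 8.52 (7 of 7). Red blood cell markers ran from 11.82 to 12.52 and from 11.77 to 12.42 (6 of 6). Macrophage markers ran from 7.29 to 7.77 and from 7.11 to 7.61, with 6 of 8 above background and Ptprc and Aif1 not above it. Neural markers ran from 7.33 to 7.69 and from 7.17 to 7.45, Tubb3 not being above background. Liver and yolk sac markers ran from 7.49 to 9.31 and from 6.95 to 10.24 (11 of 11 above background). The part of these cells in the levels of catenins and nectins was not tested.

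The genes with the most similar course over the 10 samples were sought for the catenins with the largest ranges, Ctnna3 and Ctnnd2. Likeness was the mean absolute difference after each gene was centred on its own mean, over 14688 genes above background. For Ctnna3 the closest were Zbtb8b (0.047), Pde4dip (0.047), Synpo2l (0.053) and Cavin1 (0.054), against a median of 0.18 over all genes, and each had its lowest value in CAR KO sample 5. For Ctnnd2 they were Polr2a (0.046), Cdc42ep5 (0.048), Elavl2 (0.048) and Auts2 (0.050), against a median of 0.16, and each had its lowest value in WT sample 2. The genes were picked for their closeness, so a small distance and a shared lowest sample follow largely from the choice. The values are descriptions over the same 10 samples, which differ in composition.

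The partners of catenins and nectins were examined in 7 lists with 68 measured genes, all above background. None was called (limma), none had genotypes that did not overlap, and 2 had an unadjusted p under 0.05, both lower in CAR KO hearts, where 1.43% of all clusters were lower at this p. They were Cdh11 and Ccnd1. With the 3 liver-rich samples set aside neither had an unadjusted p under 0.05, while a different gene, Znrf3, did. With only WT sample 5 and CAR KO sample 5 set aside, Cdh11 and Vcl did and Ccnd1 did not. Of all clusters, 4.19% had such a p in the former set of samples and 2.65% in the latter. Of the 68 genes, 48 were lower and 20 higher in CAR KO hearts, with a median difference of -0.04. That is 70.6% lower, where 43.9% of all clusters and 50.1% of the genes above background were lower. The interval lay within 1.5-fold for 65 of them and within 1.2-fold for 46.

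Among 8 classical cadherins, the receptors that catenins bind, 6 were lower and 2 higher, and the median difference was -0.09. Cdh2, the N-cadherin of heart muscle, differed by -0.0020 with an interval of -0.18 to 0.18. Cdh11, a cadherin of mesenchyme, lay between 12.04 and 12.39 in WT hearts and between 11.94 and 12.14 in CAR KO hearts, a difference of -0.23 (adjusted p = 1.0 from limma). It was followed by Cdh3, P-cadherin, with -0.14. The interval of Cdh1, the E-cadherin of epithelia, ran from -0.59 to 1.09 and passed the 1.5-fold limit, with a SD of 0.66 in WT and 0.79 in CAR KO hearts; it was named after its values were seen.

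The other armadillo proteins comprised plakoglobin, Arvcf and 4 plakophilins, of which 5 of 6 were lower. Jup, the gene of plakoglobin, which can take the place of β-catenin on cadherins, had a mean of 12.29 ± 0.05 in the WT samples and of 12.21 ± 0.11 in the CAR KO samples (SD, n = 5 each). Arvcf, a relative of p120-catenin, differed by -0.12, as Ctnnd1 did, and Pkp3, a plakophilin of desmosomes, by 0.09. Of 5 measured nectin relatives 3 were lower and 2 higher, with differences of 0.15 for Cadm1 and -0.14 for Cadm4, which are nectin-like adhesion molecules.

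Junction scaffolds and actin linkers were measured for 21 genes, 15 lower and 6 higher, with a median of -0.05, and 18 intervals lay within 1.2-fold. Afdn, the gene of afadin, which binds the tails of nectins, differed by 0.11 with an interval of -0.08 to 0.31. Vcl, the gene of vinculin, which binds α-catenin under tension, differed by -0.10, and Zyx, the gene of the actin regulator zyxin, also by -0.10.

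Among the genes that control and follow nuclear β-catenin, intervals were narrow for the destruction complex and wide for the targets. All 11 genes listed for the destruction complex and its associates, which hold β-catenin down, had intervals within 1.2-fold; the largest difference was -0.09 for Gsk3a, a kinase of the complex, and Apc, its scaffold, differed by -0.07. Of 7 nuclear partners, Pygo1 and Tcf7l1 had the smallest p-values with -0.14 and -0.13. The 10 target genes had a median of 0.0015, with 5 lower and 5 higher. The intervals of only 2 of them lay within 1.2-fold and of 8 within 1.5-fold. Sp5 and Notum, named after their values were seen, were the 2 within 1.2-fold. Their mean signals were 6.76 and 7.34, against a background level of 6.50. Axin2, the target most often used as a readout of this pathway, had a mean of 9.22 ± 0.32 in the WT samples and of 9.23 ± 0.40 in the CAR KO samples (SD, n = 5 each), with an interval of -0.43 to 0.43. Ccnd1, which encodes cyclin D1, lay between 11.48 and 11.66 in WT hearts and between 11.36 and 11.49 in CAR KO hearts, a difference of -0.15 (standard error 0.05, adjusted p = 1.0 from limma), and Znrf3, a membrane ubiquitin ligase, differed by -0.12. Lgr5 and Dkk1, named after their values were seen, had intervals that passed the 1.5-fold limit (-0.59 to 0.41 and -0.46 to 0.69).

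**Figure D4:**
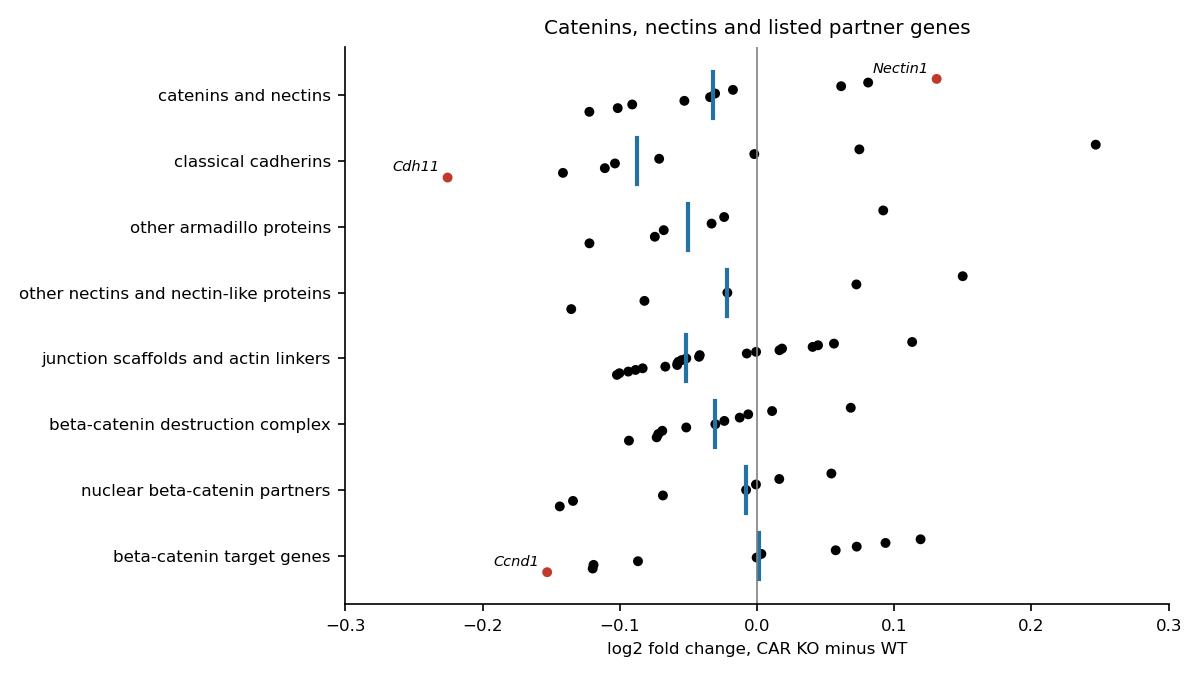
Differences in log2 signal (CAR KO less WT) of each catenin and nectin and of 68 measured partner genes in 7 lists; each point is a gene, blue bars mark the median of a list, and red points have an unadjusted p under 0.05 from limma. Nectin1, Cdh11 and Ccnd1 are the red points, and no gene was called after adjustment.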

How the data were processed

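RNA of 5 WT and 5 CAR KO samples (3 pooled E10.5 hearts each) was hybridised by the authors to Affymetrix Mouse Gene ST arrays. The authors deposited 1 table of log2 signals; the submitters' processing notes name MAS5, while how the arrays were normalized is not stated in the labels or methods. Of 35556 rows, 6612 control rows, whose identifiers precede 10344614 and none of which has a gene name, were left out, which left 28944 clusters; 21789 name 1 gene, with symbols from the platform annotation updated by Entrez identifier to GRCm38.p6 (21698 matched). A gene was represented by its cluster with the highest mean. The catenins and nectins, the partner and marker lists and the rule for genes to name were chosen with earlier results of these data known. By that rule all 10 genes are named, of each partner list the 2 with the smallest p together with Jup, Cdh2, Afdn, Vcl and Axin2, and the 4 nearest genes for the widest-ranging catenins.

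CAR KO was compared with WT by limma 3.58.1 in R 4.3.3 (lmFit, eBayes) on all clusters without a filter, the Benjamini-Hochberg adjustment took in every cluster, and 0.05 was the threshold; intervals (95%) were not adjusted. The procedure was tested on simulated data with independent normal noise for each cluster. These lack the shifts in composition seen in the real samples, so the procedure was not tested against such shifts. Alternatives were quantile normalization, median centring, a filter at the 40th percentile, the methods' t-test, a variance trend with robust prior, the sample number as a block, array weights, the mean of a gene's clusters, and leaving out each sample, with 2 further sets of samples left out that were chosen after the data were seen. Correlations between samples ranged from 0.987 to 0.998. Protein sequences were not used here.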

Additional observations from a re-analysis of the deposited data

Results flagged for a closer look

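In groups of 5 samples, 40 groups (the 10 genes, Cxadr and 9 marker list means in each genotype) were examined for a sample far from the other 4, and 4 had one, where chance gives about 1 in 20 groups, or 2. Nectin3 was lowest in CAR KO sample 4, with 10.05 against 10.19 for the next sample, a gap of 0.933 of the range of the genotype. The mean of the cardiomyocyte markers was lowest in CAR KO sample 5 (12.89, gap of 0.877). The means of the neuron and neural crest markers (7.69, gap of 0.727) and of the macrophage markers (7.77, gap of 0.731) were highest in WT sample 5.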

How the results depend on the processing

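Over 20 alternatives, the number of the 10 catenins and nectins called was 0 throughout, and Cxadr was called in each (-1.97 to -1.84). The adjusted p of Nectin1 was between 0.775 and 1.0, and its direction did not change. Several alternatives could not change that direction, because they leave the difference as it is. They are the dim filter, the variance trend, the methods' t-test, the block and the mean of a gene's clusters. All measured catenins and nectins stayed within 1.5-fold (9 of 9 with the dim filter, which removed Ctnna2). Those at an unadjusted p under 0.05, 1 in the analysis reported, numbered 0 with median centring, 2 with the trend and robust prior, 2 with array weights, 2 without WT sample 5 and CAR KO sample 5, and 0 to 2 with samples left out in turn. Of all clusters, 2.34% had such a p with median centring, 2.30% with the trend and robust prior and 6.26% with array weights. The share was 2.65% without WT sample 5 and CAR KO sample 5, and 1.42% to 3.56% with samples left out in turn. Catenins and nectins within 1.2-fold, 7 as reported, numbered 4 to 8 with samples left out in turn (4 without CAR KO sample 1). Those whose genotypes did not overlap numbered 0 to 1 with samples left out in turn (1, Nectin1, without WT sample 5), 1 without WT sample 5 and CAR KO sample 5, and 2 without WT samples 2 and 5 and CAR KO sample 5, where fewer samples leave more room for separation. The share of all clusters that separated in these reduced sets is not given here, so nothing is concluded from these counts. Of the partner genes, 2 as reported, 4 with the methods' t-test, 5 with array weights and 1 (Znrf3) without WT samples 2 and 5 and CAR KO sample 5 had an unadjusted p under 0.05. The share of all clusters at such a p was 2.40% as reported and 2.63% with the methods' t-test. It was 6.26% with array weights and 4.19% without WT samples 2 and 5 and CAR KO sample 5. The differences of Ctnna3 (-0.18 to 0.0022) and Nectin3 (-0.041 to 0.010) changed sign with samples left out, Ctnna3 without CAR KO sample 5 and Nectin3 without WT sample 3 or CAR KO sample 4; no other difference of these genes did. Apart from the fewer samples, the cause was not tested. With a replicate block on the sample number, 0 catenins and nectins were called, and 1 (Nectin1) had an unadjusted p under 0.05 from limma. Such a p was found for 1304 clusters (4.51%), against 696 (2.40%) without the block. The deviations of WT and CAR KO samples with the same number had correlations of 0.07 to 0.56, over 0.1 in 4 of 5 pairs. Of the CAR KO samples 4 of 5, and of the WT samples 3 of 5, were most like the sample of their own number. This likeness was seen in the data, and its source was not tested. The labels do not say that a shared number marks a pair, so the analysis reported took the samples as unpaired. Whether the numbers mark pairs was not tested.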
